A study of Mus musculus with 2 samples.

Results

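The values given here are those of 6 genes in CD45+ cells of B16-F10 tumors, namely the neutrophil-attracting chemokines Cxcl1, Cxcl2 and Cxcl3, their receptor Cxcr2, and the platelet factors Ppbp and Pf4. They were chosen by name from the 31253 genes of the count files, and all 6 are listed there and had unique molecular identifiers (UMIs) in both libraries. Each was followed through the neutrophils, eosinophils, monocytes and macrophage states of the tumor.

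B16-F10 is a mouse melanoma line, of which 200000 cells were injected subcutaneously into C57BL/6 mice. The mice were either Irg1+/+ or Irg1-/-, a deletion present in the whole animal, so that a difference between the libraries is not tied to macrophages alone. Irg1, listed as Acod1, encodes the enzyme that makes itaconate. The mice were females aged 8 to 10 weeks. On day 10 pieces of 100 mm3 from the tumors of 3 mice of a genotype were pooled. CD45+ cells, given as 6000 per sample, were sorted for BD Rhapsody, a microwell platform that counts transcripts by UMI. Each genotype thus had 1 library. No test between genotypes was possible, and genotype cannot be told apart from the pool of mice, the sort or the preparation. All intervals in brackets are exact 95% intervals that cover counting error only.

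The files labelled Irg1+/+ and Irg1-/- list 6408 and 5896 cells, the first more than the 6000 given as sorted. Of these, 6284 and 5794 were kept, with more than 200 genes and less than 10% mitochondrial UMIs. They held 42105693 and 35307041 UMIs without the mitochondrial genes, with medians of 4528 and 4594.5 per cell. The libraries shared 36 cell barcodes, and leaving those cells out kept every library ratio tried within its interval. Cells were placed in groups by the summed level of marker genes, none of which is among the 6 genes. A group's name stands for its gate. Cells positive for more than 1 lineage with scores not far apart, 312 and 292, were kept apart as possible doublets. Cells with a much weaker second lineage stayed in the group of their first. No gate was passed by 678 and 613 cells. Cells within 20% of a cut, in any of these groups, were 13.3% and 11.9% of the kept cells. The library labelled Irg1-/- held more neutrophils, 184 against 68 cells (3.18% against 1.08% of kept cells), more classical monocytes, 625 against 473, and fewer Vegfa macrophages, 344 against 562.

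Cxcl1, Cxcl2, Cxcl3 and Ppbp belong to the CXC chemokines that carry the ELR motif and signal through Cxcr2, the receptor that draws neutrophils out of blood into inflamed tissue. Macrophages, neutrophils and stromal cells make the first 3 on stimulation through NF-kB. Pf4, also called Cxcl4, has no ELR motif and is stored with Ppbp in the alpha granules of platelets. Pf4 is also known as a gene of tissue macrophages.

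The chemokine genes lie in 1 cluster, with Cxcl15 between Cxcl3 and Cxcl1. On GRCm38 (GENCODE release 21, all on the plus strand) Ppbp lies at chr5:90768518-90770063, Pf4 at chr5:90772435-90773383, Cxcl3 at chr5:90786103-90789600, Cxcl1 at chr5:90891241-90893115 and Cxcl2 at chr5:90903871-90905938. These 5 genes span 137.4 kb. Cxcr2 lies apart, at chr1:74153989-74161246. The stretch from 100 to 31 bases before the RefSeq start is printed for the 3 chemokines with an NF-kB-type motif there, GGAATTTCC (in capitals; its reverse complement GGAAATTCC was searched too), and for Pf4, which has none, so that the neighbours can be compared.
Cxcl1, chr5:90891145-90891214: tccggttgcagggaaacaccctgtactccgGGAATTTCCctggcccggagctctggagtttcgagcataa
Cxcl2, chr5:90903799-90903868: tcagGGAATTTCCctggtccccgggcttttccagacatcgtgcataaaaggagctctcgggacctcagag
Cxcl3, chr5:90786001-90786070: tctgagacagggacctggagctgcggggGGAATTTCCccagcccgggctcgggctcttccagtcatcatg
Pf4, chr5:90772335-90772404: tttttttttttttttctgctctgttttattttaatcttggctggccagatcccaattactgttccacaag

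These letters begin 70, 96 and 72 bases before the starts of Cxcl1, Cxcl2 and Cxcl3, always on the forward strand. Over all RefSeq promoters of GRCm38.p6, 94 of 32851 (0.286%) hold the motif on either strand in the 250 bases before the start. No match was found in the windows of Cxcr2, Ppbp and Pf4. A match describes the sequence and is neither a bound site nor a cause of any value below. Cxcl2 and Cxcl3 are close copies: 126 of the 2159 runs of 50 bases in Cxcl2 transcripts (5.84%) also occur in Cxcl3, so that some reads of one may have been given to the other. Cxcl1, Ppbp and Pf4 share no such run with another gene.

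The deleted gene was looked at first. Acod1 had 199 CPM (the gene's UMIs scaled to 1000000 UMIs of the group of cells) in Vegfa macrophages of the library labelled Irg1+/+ and 191 in that labelled Irg1-/-, 2078 and 1845 in neutrophils, and 87.8 and 108 over all kept cells. Its level was therefore not lower over all cells of the library labelled Irg1-/-. Whether the counted stretch lies inside the deleted part is not given in the sources used here, so the gene does not check the labels. The cell numbers of the files, 6408 and 5896, are those that the paper lists for Irg1+/+ and Irg1-/-. It also reports more Vcan+ monocytes and fewer Vegfa+ macrophages in Irg1-/- mice. The counts of classical monocytes and Vegfa macrophages given above run the same way. Both come from the same libraries, so this is no independent check of the labels.

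The markers that set the gates were looked up in the gated cells, which describes the gates and is no independent check. All 7 neutrophil markers, all 8 of Vegfa macrophages and all 8 of Mrc1 C1q macrophages were detected in 10% or more of the cells in their gate, as were 11 of the 17 markers of T, NK and B cells in lymphocytes. Among the 10 genes that stood highest over the other cells were S100a9 and S100a8 in neutrophils, Nos2 and Mmp12 in Vegfa macrophages, and Ccl8, Igf1 and Gas6 in Mrc1 C1q macrophages. Cxcr2 was the third of the neutrophil genes and Cxcl3 was among the first 10 of Vegfa macrophages, although no gate used them. Lymphocytes, which are not known as a source of these chemokines, served as the background and were taken as a measure of free RNA. This background was not spread evenly. Of the 399 Cxcl1 UMIs in 1778 lymphocytes labelled Irg1+/+, the richest 10 cells held 25.1% and 1 cell held 27. What it holds besides free RNA was not tested. The lymphocyte levels are printed beside the others.

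**Figure D1:**
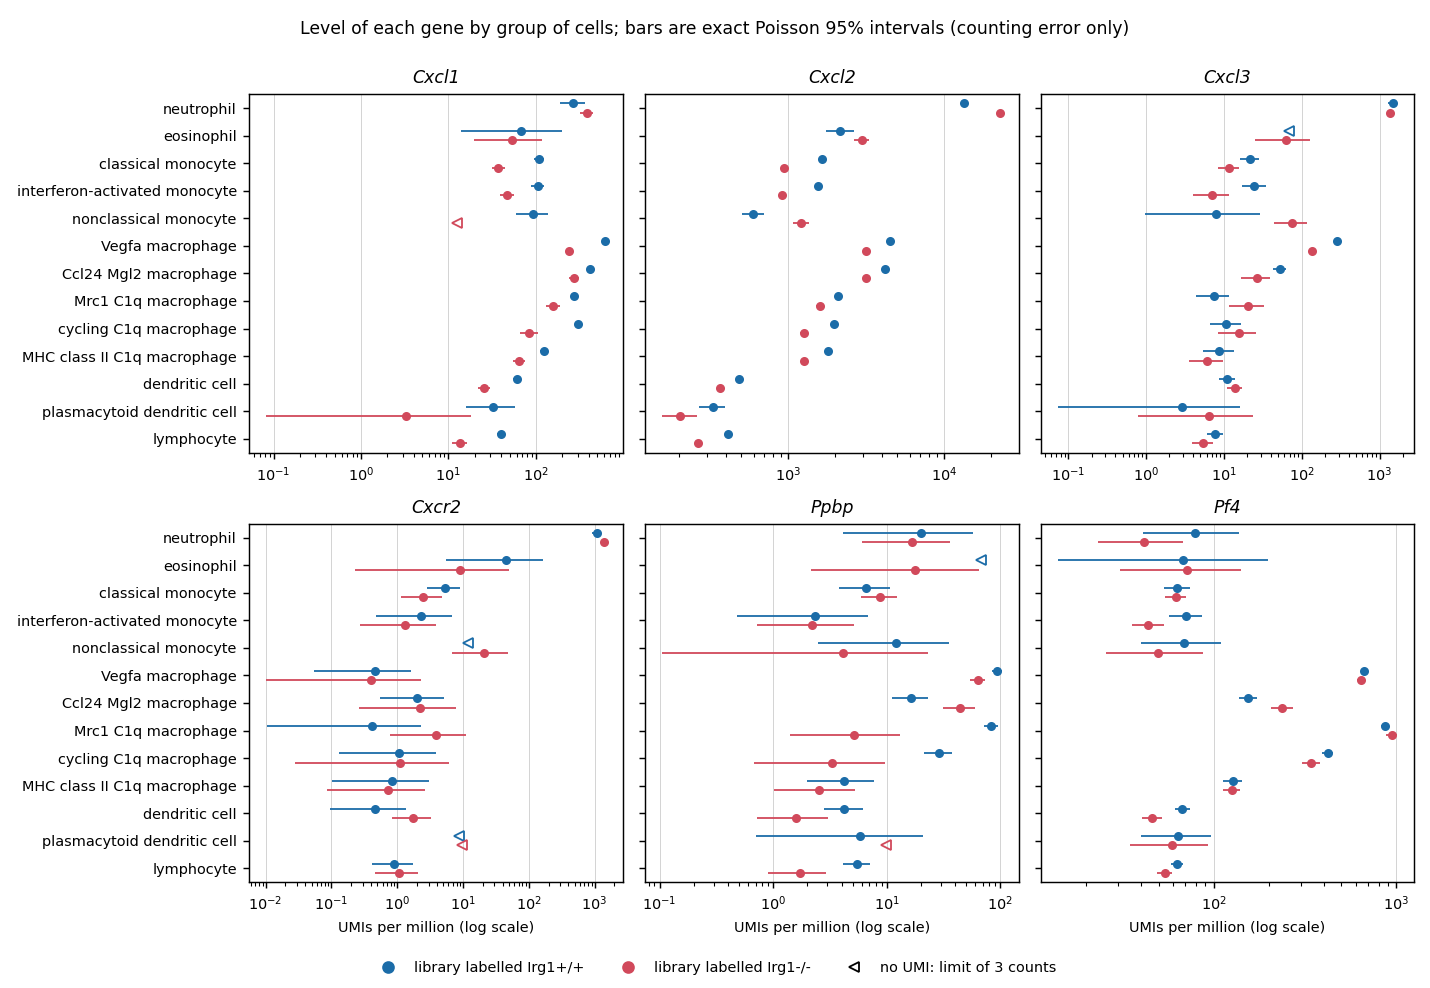
Level of each gene (CPM, log scale) in 13 groups of cells of the libraries labelled Irg1+/+ (blue) and Irg1-/- (red), with exact Poisson 95% intervals; open triangles mark the limit that a count of 0 allows. Among the groups plotted, which leave out the 16 and 40 Lyve1 macrophages, neutrophils stand highest for Cxcl2, Cxcl3 and Cxcr2, and Mrc1 C1q and then Vegfa macrophages for Pf4.

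Among groups with at least 50 cells, Cxcl1, a chemokine also called KC, was highest in macrophages of the library labelled Irg1+/+. There it reached 611 CPM in Vegfa macrophages (588 to 635), 419 in Ccl24 Mgl2 macrophages, 306 in cycling C1q macrophages, 275 in Mrc1 C1q macrophages and 264 in neutrophils (189 to 359). The intervals of the last 3 overlapped one another in turn, and all stood above the 108 CPM of classical monocytes and the 40.1 of lymphocytes. In the library labelled Irg1-/- the order changed. Neutrophils came first among groups with at least 50 cells, with 383 CPM (322 to 453). Ccl24 Mgl2 macrophages followed with 273 and Vegfa macrophages with 241 (222 to 261), and the intervals of these macrophages overlapped. Mrc1 C1q macrophages had 156 CPM, cycling C1q macrophages 83.8, classical monocytes 37.2 and lymphocytes 13.5.

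Cxcl1 was thus lower in the library labelled Irg1-/- in most groups. The log2 ratio (Irg1-/- over Irg1+/+) was -1.34 in Vegfa macrophages (-1.47 to -1.21), -1.54 in classical monocytes (-1.85 to -1.23) and -1.86 in cycling C1q macrophages (-2.23 to -1.52). Of 14 groups with at least 50 cells in each library, 12 were lower beyond counting error and 1, the neutrophils, was higher, with a log2 ratio of 0.53 (0.02 to 1.08). The neutrophil value came from 40 and 139 UMIs, of which 2 and 4 cells held the larger part, and with clusters in place of gates it was -0.018. The Mrc1 C1q ratio of -0.82 was 0.23 with stricter gates, and 1 cell held 64 of its 122 UMIs in the library labelled Irg1-/-. In the 16 and 40 Lyve1 macrophages the ratio was -0.30 (-0.80 to 0.23). Lymphocytes moved like the macrophage states with at least 50 cells, at -1.57 (-1.90 to -1.26). With the lymphocyte level of the same library subtracted, the Vegfa macrophage ratio stayed within its interval.

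The share of Vegfa macrophages with a Cxcl1 UMI was 46.1% and 25.9% (Irg1+/+ and Irg1-/-), against 15.2% and 5.42% of lymphocytes, at median depths of 6143.5 and 5909.5 UMIs against 3304.5 and 2741. Cells with at least 2000 UMIs were then thinned to 2000, and those with fewer were left out, here and below. The shares were 32.4% and 17.01% of 466 and 294 Vegfa macrophages and 5.46% and 2.09% of 1409 and 1148 lymphocytes. The few stromal or endothelial cells, 9 and 4, had 314 and 1338 CPM, but 1 cell held 15 of 19 and 59 of 79 of these UMIs.

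Cxcl2, also called MIP-2, had its highest level per UMI in neutrophils, which held 2.93% and 18.3% of its UMIs, against 28.4% and 17.1% in Vegfa macrophages. It had 13456 CPM in neutrophils of the library labelled Irg1+/+ (12879 to 14053) and 22826 in those of the library labelled Irg1-/- (22337 to 23323). A UMI was found in 92.6% and 96.7% of the neutrophils, at median depths of 1678 and 1775.5 UMIs, and in 66.6% and 54.0% of the lymphocytes, at 3304.5 and 2741 UMIs. Thinning to 2000 UMIs left out 47 and 119 neutrophils that had fewer. The shares were then 85.7% and 98.5% of 21 and 65 neutrophils and 50.2% and 39.02% of lymphocytes. Vegfa macrophages followed with 4514 and 3139 CPM, then Ccl24 Mgl2 macrophages with 4138 and 3128, whose interval overlapped that of Vegfa macrophages only in the library labelled Irg1-/-. Eosinophils had 2146 and 2955 CPM, Mrc1 C1q macrophages 2093 and 1593, classical monocytes 1644 and 943, and lymphocytes 409 and 266.

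Between the libraries Cxcl2 moved in opposite directions in granulocytes and in the macrophage states with at least 50 cells. The log2 ratio was 0.76 in neutrophils (0.69 to 0.83) and 0.46 in eosinophils (0.13 to 0.81), and -0.52 in Vegfa macrophages (-0.56 to -0.49), -0.80 in classical monocytes (-0.87 to -0.74) and -0.62 in lymphocytes (-0.70 to -0.55). Of the 14 groups 11 were lower and 3 higher. The third that was higher, nonclassical monocytes (1.02), had 292 UMIs in the library labelled Irg1-/-, and 2 cells held most of them. The neutrophil ratio was 0.32 with clusters in place of gates and 0.92 with TMM scaling, and the Mrc1 C1q ratio of -0.39 was 0.038 with stricter gates. In the 16 and 40 Lyve1 macrophages the ratio was 0.09 (-0.07 to 0.25). The difference between neutrophils and macrophages was not tested.

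Cxcl3 was confined to fewer cells. Neutrophils had 1491 CPM (1303 to 1698) and 1376 (1258 to 1502), Vegfa macrophages 287 (271 to 303) and 137 (123 to 152), Ccl24 Mgl2 macrophages 52.3 and 26.3, classical monocytes 21.8 and 11.7, and lymphocytes 7.75 and 5.38. Neutrophils therefore stood 192-fold and 253-fold over lymphocytes. In Vegfa macrophages 22.2% and 12.8% of the cells had a UMI, against 3.37% and 2.09% of lymphocytes. Median depths were 6143.5 and 5909.5 UMIs against 3304.5 and 2741. After thinning to 2000 UMIs, 71 of 466 and 25 of 294 Vegfa macrophages had a Cxcl3 UMI. The Mrc1, cycling and MHC class II C1q macrophages had between 6.13 and 20.4 CPM. Nonclassical monocytes had 8.05 and 74.7 CPM, from 2 and 18 UMIs, and eosinophils 0 and 62.5 CPM, from 0 and 7 UMIs.

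In neutrophils the log2 ratio of Cxcl3 was -0.12, with an interval that held 0 (-0.35 to 0.12). In Vegfa macrophages the ratio was -1.07 (-1.25 to -0.89) and in interferon-activated monocytes -1.78 (-2.77 to -0.89, from 32 and 16 UMIs). Lymphocytes had -0.52 (-1.11 to 0.04). Of the 14 groups 4 were lower and 2 higher, and in 8 the interval held 0. Both higher groups rest on few UMIs, 18 and 16 in Mrc1 C1q macrophages and 2 and 18 in nonclassical monocytes, of which 1 cell held 17.

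Cxcr2, the receptor of these chemokines, was highest in neutrophils. It had 1075 CPM (917 to 1254) and 1373 CPM (1255 to 1499) there, with UMIs in 57.4% and 65.2% of the cells. Lymphocytes had 0.906 and 1.05 CPM and UMIs in 0.281% and 0.523% of the cells, and Vegfa macrophages 0.457 and 0.407 CPM from 2 UMIs and 1 UMI. Classical monocytes had 5.35 CPM from 13 UMIs and 2.52 from 9, and eosinophils 45.2 and 8.93 CPM from 2 UMIs and 1 UMI. Mast cells or basophils, only 7 and 8 cells, came next after neutrophils with 220 (71.4 to 513) and 73.7 CPM (15.2 to 215), from 5 and 3 UMIs, and these intervals lay above those of lymphocytes. No macrophage state with at least 50 cells had a level whose interval in both libraries lay above that of lymphocytes.

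In neutrophils the log2 ratio of Cxcr2 was 0.35 (0.10 to 0.62), and it was -0.022 with clusters in place of gates. Over all kept cells it was 1.61 (1.39 to 1.83), from 238 and 609 UMIs, beside the larger number of neutrophils in the library labelled Irg1-/-. The number of neutrophils and the level per neutrophil both enter such a total. Neutrophils held 0.36% and 1.03% of all UMIs, and the ratio within them was the 0.35 given above. The other genes of the Cxcr2 axis had few UMIs. Over all kept cells Cxcl5, a further ligand, had 2 and 11 UMIs, Cxcl15 0 and 0, Cxcr1, the related receptor, 21 and 11, and Ackr1, the decoy receptor of venous endothelium, 16 and 29. In neutrophils Cxcr1 had 72.6 CPM (36.2 to 130) and 16.5 CPM (6.07 to 36.0), from 11 and 6 UMIs, against 0.302 and 0 CPM in lymphocytes, so that it was lower in the library labelled Irg1-/- where Cxcr2 was higher. Ackr1 had 203 CPM in the 4 stromal or endothelial cells of that library, from 12 UMIs, and 0 UMIs in the 9 of the other. None of these 4 reached the 20 UMIs needed for a ratio in Vegfa macrophages, neutrophils, classical monocytes or lymphocytes.

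**Figure D2:**
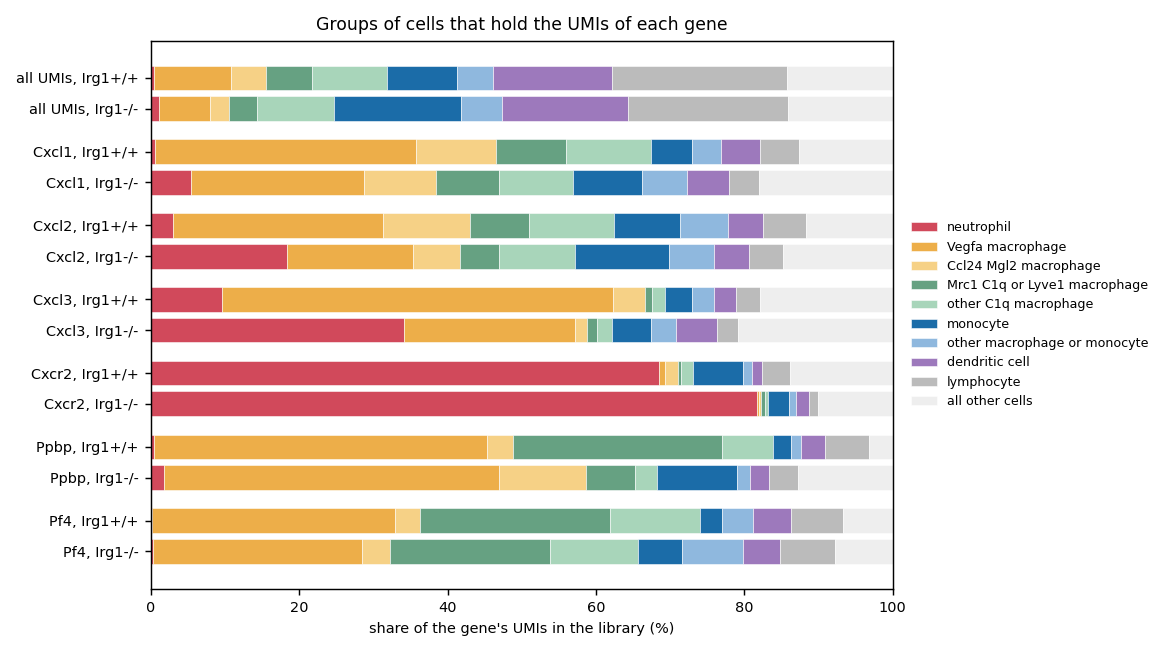
Share of each gene's UMIs (percent) held by the groups of cells in each library, beside the same for all UMIs. Neutrophils held 0.36% and 1.03% of all UMIs but 68.5% and 81.8% of those of Cxcr2.

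The groups that held the UMIs of the chemokines shifted between the libraries. Neutrophils held 2.93% of the Cxcl2 UMIs in the library labelled Irg1+/+ and 18.3% in that labelled Irg1-/-, and 9.50% and 34.2% of those of Cxcl3. Their part of all UMIs was 0.36% and 1.03%. Vegfa macrophages held 28.4% and 17.1% of Cxcl2, 52.7% and 23.0% of Cxcl3 and 35.2% and 23.2% of Cxcl1, with 10.4% and 6.96% of all UMIs. Over all kept cells the log2 ratios were -1.32 for Cxcl1, -0.37 for Cxcl2 and -0.45 for Cxcl3. Number of cells and level per cell both enter these totals.

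Ppbp, the precursor of the platelet chemokine NAP-2, was found mainly in a few macrophages. Vegfa macrophages had 93.2 and 63.1 CPM, Mrc1 C1q macrophages 83.2 and 5.11, Ccl24 Mgl2 macrophages 16.2 and 43.9, classical monocytes 6.58 and 8.66, and lymphocytes 5.43 and 1.71. A UMI was found in 7.47% and 4.36% of Vegfa macrophages and in 2.87% and 0.784% of lymphocytes, and after thinning to 2000 UMIs in 3.43% and 2.72% against 1.42% and 0.0871%. The 16 and 40 Lyve1 macrophages had 243 and 37.5 CPM.

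Single cells made these levels. In the library labelled Irg1+/+, 12 cells with at least 10 Ppbp UMIs held 70.2% of the 907 Ppbp UMIs. In that labelled Irg1-/- 7 cells held 61.8% of 343. Of these 7, 1 was a classical monocyte that held 23 of the 31 Ppbp UMIs of its group. Another 1, with 23, was positive for more than 1 lineage. The richest cell, a Vegfa macrophage, had 261 Ppbp UMIs among 18722, with 98 of Pf4. All 12 and all 7 cells also had Pf4 UMIs, and 465 and 165 of these in sum. Of 10 platelet or megakaryocyte markers, such as Itga2b, Gp9 and Tubb1, these 19 cells had 0 UMIs. No cell passed the platelet gate in either library, which allows a share of up to 0.0587% and 0.0636% of the kept cells, and over all kept cells the 10 markers had 93 and 94 UMIs (2.21 and 2.66 CPM), with 1 and 2 of them at 0. The most abundant were Itga2b and Clec1b.

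The Ppbp ratios between the libraries rest on these cells. The log2 ratio in Vegfa macrophages was -0.56 (-0.84 to -0.29), 0.0098 without the richest cell of each library and 0.18 as a mean of the CPM of single cells. In Mrc1 C1q macrophages it was -3.86, and -0.27 without cells of at least 10 Ppbp UMIs. In Ccl24 Mgl2 macrophages it was 1.43 (0.73 to 2.15), from 32 and 40 UMIs, and 1 cell held 16 of the 32 and 2 cells 24 of the 40. Lymphocytes, with no such cell, had -1.63 (-2.67 to -0.78).

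Pf4 was a gene of the Mrc1 C1q, Lyve1 and Vegfa macrophages. Mrc1 C1q macrophages had 864 CPM (827 to 902) and 944 CPM (877 to 1015), Lyve1 macrophages 762 and 914, Vegfa macrophages 663 (639 to 688) and 638 (607 to 670), and cycling C1q macrophages 421 and 341. The intervals of Mrc1 C1q and Lyve1 macrophages overlapped in both libraries, and in the library labelled Irg1+/+ that of Lyve1 macrophages (650 to 887, from 16 cells) also overlapped that of Vegfa macrophages. UMIs were found in 78.98% and 82.1% of Mrc1 C1q macrophages and in 54.8% and 56.4% of Vegfa macrophages, against 25.2% and 19.5% of lymphocytes. MHC class II C1q macrophages had 127 and 126 CPM, and classical monocytes, with 62.9 and 62.0, were at the level of lymphocytes, with 62.9 and 53.8.

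Where Pf4 was highest its log2 ratio was -0.06 in Vegfa macrophages (-0.15 to 0.03), 0.13 in Mrc1 C1q macrophages (0.0049 to 0.25) and 0.26 in Lyve1 macrophages (0.0048 to 0.53, from 16 and 40 cells). In Mrc1 C1q macrophages it was 0.48 with stricter gates. In cycling C1q macrophages, the next highest, it was -0.30 (-0.50 to -0.11). It was 0.63 in Ccl24 Mgl2 macrophages (0.37 to 0.89) and -0.68 in interferon-activated monocytes (-1.10 to -0.25). Of the 14 groups 3 were higher and 4 lower, and in 7 the interval held 0. Over all kept cells Pf4 had a ratio of -0.42, beside fewer Vegfa and Mrc1 C1q macrophages in the library labelled Irg1-/-.

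**Figure D3:**
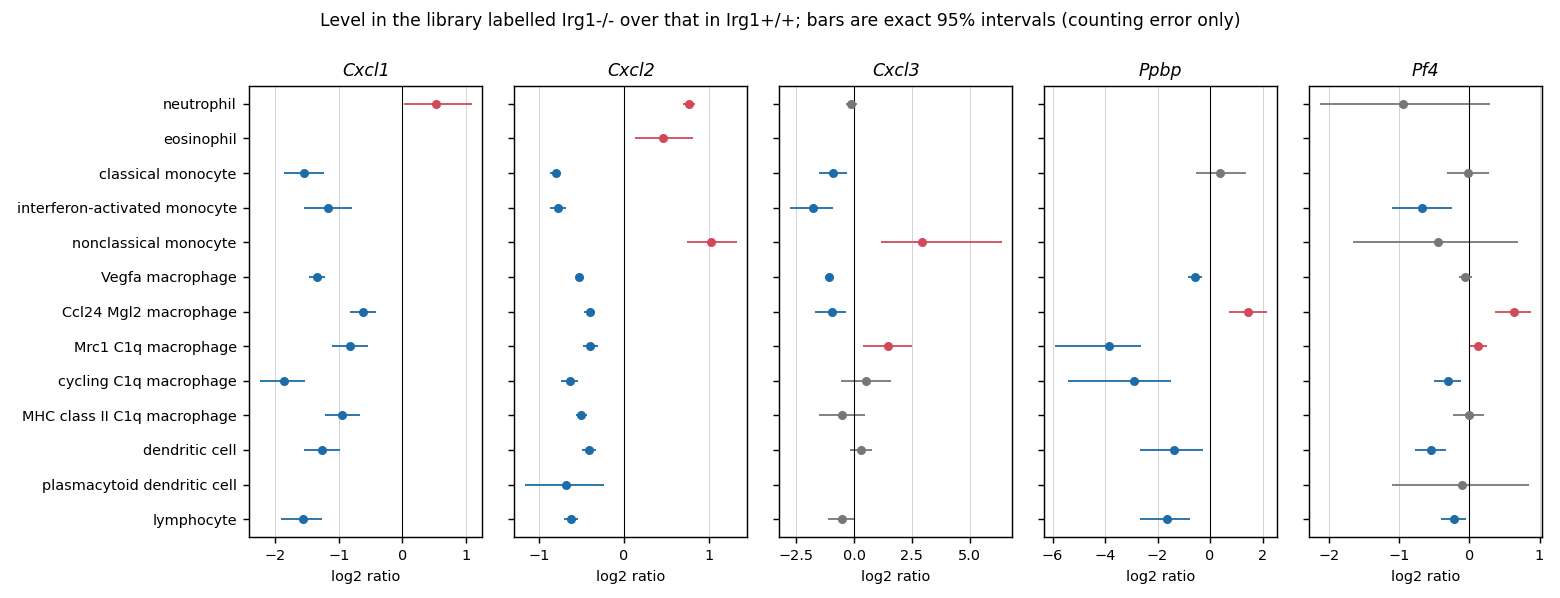
Log2 ratio of the level in the library labelled Irg1-/- over that in Irg1+/+ in 13 groups of cells, with exact 95% intervals for counting error; blue, lower; red, higher; grey, the interval holds 0; a group with fewer than 20 UMIs over both libraries or none in one has no point. Cxcl1 and Cxcl2 lie below 0 in the macrophage states with at least 50 cells and above it in neutrophils, where Cxcl1 is at -0.018 with clusters in place of gates; the Mrc1 C1q points are at 0.23 and 0.038 with stricter gates.

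The members were read against all genes of the same cells. In Vegfa macrophages 5 of the 6 had at least 20 UMIs over both libraries, all but Cxcr2. Of these, Cxcl1 and Cxcl3 were at least 1.5-fold lower in the library labelled Irg1-/-, where 6.87% of 10003 genes were, and none was 1.5-fold higher, where 5.96% were. In neutrophils 5 members reached 20 UMIs, all but Ppbp. Cxcl2 was at least 1.5-fold higher, as were 11.2% of 3537 genes, and Pf4, with 12 and 15 UMIs, was at least 1.5-fold lower, as were 22.3%. At 1 in 5 each way, the neutrophil calls are near what all genes give.

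In classical monocytes 4 of 6 members were at least 1.5-fold lower, namely Cxcl1, Cxcl2, Cxcl3 and Cxcr2, against 6.17% of 9502 genes. The Cxcr2 call came from 13 and 9 UMIs. In lymphocytes 3 of 5, Cxcl1, Cxcl2 and Ppbp, were so, against 6.22% of 11695 genes. Cxcl1 and Cxcl2 were thus lower in classical monocytes and also in lymphocytes, the background group, while Cxcl2 was higher in neutrophils. The part of free RNA in the ratios was not tested beyond the subtraction of the lymphocyte level given above.

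Within each library the Vegfa macrophages were compared with all other macrophages and monocytes. Their gate used Vegfa and other markers, but none of the 6 genes. Cxcl1 was higher there than in the rest by a log2 ratio of 1.54 (1.47 to 1.62) in the library labelled Irg1+/+ and 1.59 (1.44 to 1.73) in that labelled Irg1-/-. The values were 1.06 and 1.25 for Cxcl2, 3.72 (3.54 to 3.90) and 3.25 (2.99 to 3.51) for Cxcl3, 1.86 and 2.91 for Ppbp, and 1.21 and 1.63 for Pf4. For Ppbp they were 1.43 and 1.33 without the cells of at least 10 Ppbp UMIs. In each library 5 of 6 members were at least 1.5-fold higher in this state, against 8.51% and 10.4% of all genes with 20 UMIs. Cxcr2 was the exception, with 2 UMIs and 1 UMI.

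The remaining states divided the family. Ccl24 Mgl2 macrophages were above the rest in Cxcl1 (0.54 and 1.54) and Cxcl2 (0.71 and 1.06) and below it in Pf4 (-1.37 and -0.20). Mrc1 C1q macrophages were above the rest in Pf4 (1.52 and 1.99). They were below it in Cxcl3 (-3.60 and -0.67, from only 18 and 16 UMIs) and, in the library labelled Irg1+/+, in Cxcl2 (-0.41). In the library labelled Irg1-/- their Cxcl2 level, 1593 CPM, was that of the rest, 1595. Classical monocytes were below the rest in Cxcl1 (-1.60 and -1.72), Cxcl2 (-0.79 and -0.91), Cxcl3 (-2.04 and -1.71) and Pf4 (-2.72 and -2.41).

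**Figure D4:**
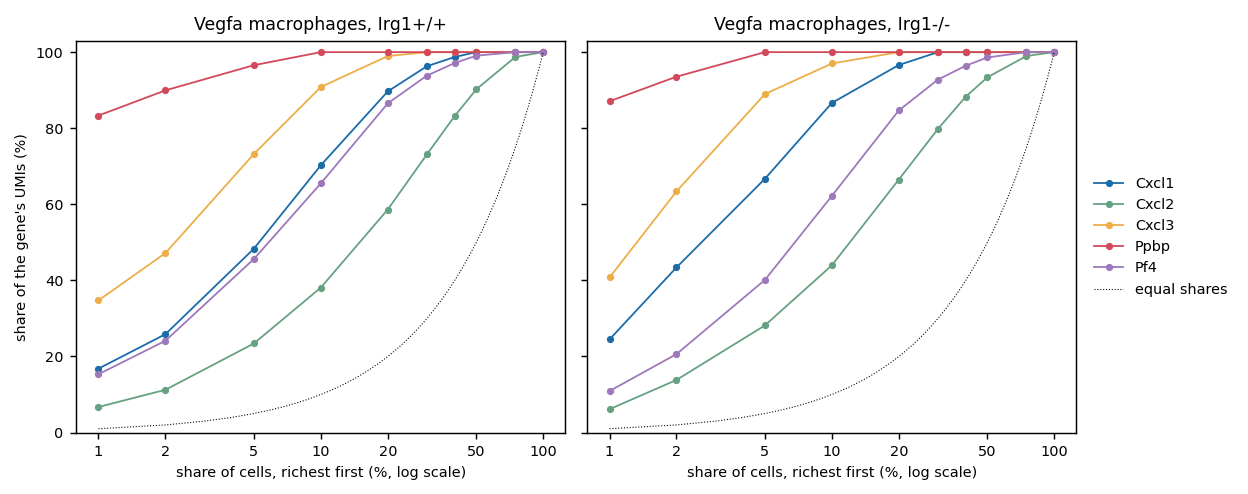
Share of each gene's UMIs (percent) held by the richest cells (percent of cells, log scale) among 562 and 344 Vegfa macrophages of the libraries labelled Irg1+/+ and Irg1-/-; the dotted line is an equal share per cell. The richest 1% of cells held 83.3% and 87.1% of the Ppbp UMIs and 6.72% and 6.13% of those of Cxcl2.

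Even inside this state the genes were spread unevenly. In Vegfa macrophages 30 of 562 and 10 of 344 cells held 50% of the Cxcl1 UMIs, 13 and 5 cells that of Cxcl3, and 33 and 24 cells that of Pf4, while for Cxcl2 it took 86 and 42 cells. The intervals, which cover counting error, leave this spread between cells out. Without the richest cell of each library the Cxcl3 ratio was -1.26, and Cxcl1 and Cxcl2 stayed within their intervals.

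Among Vegfa macrophages, a larger share of cells with Cxcl3 than without it had Cxcl1. After thinning to 2000 UMIs, 34 of 71 Vegfa macrophages with a Cxcl3 UMI (47.9%, 35.9 to 60.1) and 117 of 395 without one (29.6%, 25.2 to 34.4) had a Cxcl1 UMI in the library labelled Irg1+/+. In that labelled Irg1-/- it was 12 of 25 (48.0%, 27.8 to 68.7) and 38 of 269 (14.1%, 10.2 to 18.9). In neutrophils it was 2 of 8 against 1 of 13 and 6 of 25 against 6 of 40, with intervals that overlapped, and in Mrc1 C1q macrophages 0 of 2 against 34 of 130 and 0 of 5 against 3 of 62. Of the Vegfa macrophages with a Ppbp UMI 12 of 16 and 8 of 8 had Pf4, against 36.9% and 37.4% of those without. The cells of a library are not replicates, and these shares describe 1 library each.

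**Figure D5:**
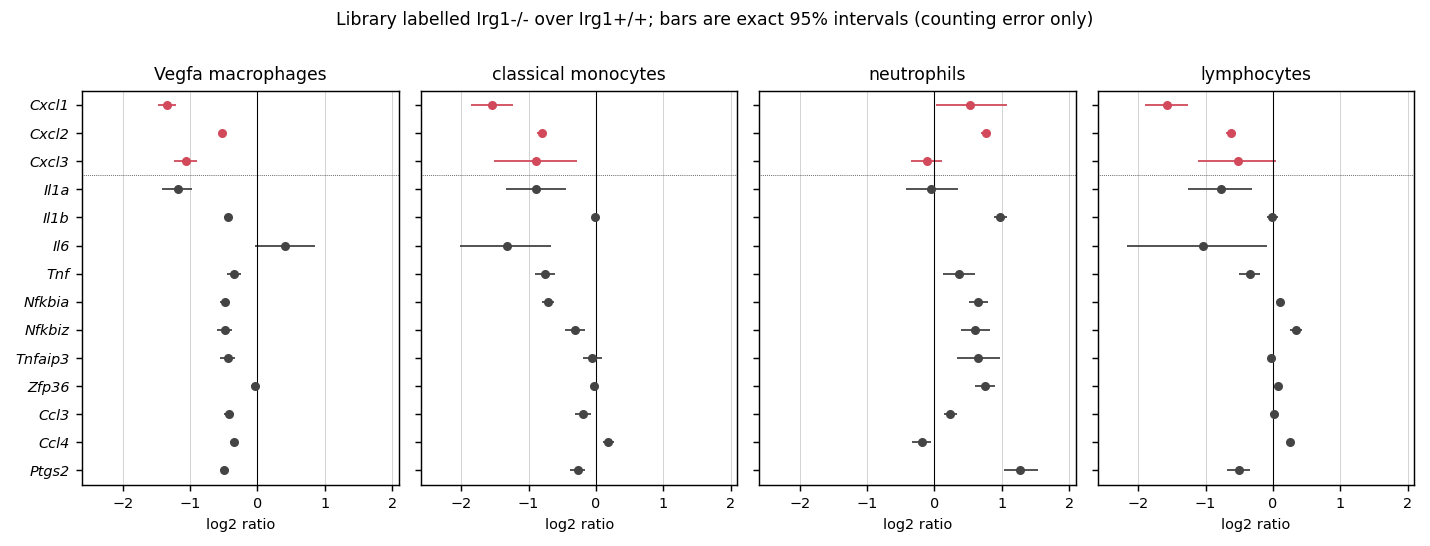
Log2 ratio (library labelled Irg1-/- over Irg1+/+) of Cxcl1, Cxcl2 and Cxcl3 (red) and of 11 early NF-kB response genes (black) in 4 groups of cells, with exact 95% intervals for counting error; Il6 has too few UMIs in neutrophils. In Vegfa macrophages Cxcl1, Cxcl3 and Il1a lie furthest below 0, and in neutrophils most genes lie above it.

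Other early genes of the NF-kB response were set beside Cxcl1, Cxcl2 and Cxcl3, which share with them the timing of their induction. In Vegfa macrophages 1 of 11, the cytokine Il1a, was at least 1.5-fold lower in the library labelled Irg1-/- (857 and 211 UMIs, -1.19), and none was higher. All genes gave 6.87% lower, so that 1 of 11 is near the background. The median of the 11 was -0.44, where that of all genes was 0.0057. Il1b had -0.44, Nfkbia, the inhibitor of NF-kB, -0.49, and Ptgs2, the cyclooxygenase of prostaglandin synthesis, -0.49, near the -0.52 of Cxcl2.

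Neutrophils gave the other sign. There 6 of 10 early genes were at least 1.5-fold higher and none lower, where 11.2% of all genes were higher and 22.3% lower. Their median was 0.62, against -0.14 over all genes. Il1b had 0.98, Ptgs2 1.28 and Zfp36, which shortens the life of cytokine mRNAs, 0.75. In classical monocytes 4 of 11 were lower, Il1a, Il6, Tnf and Nfkbia, where 6.17% of all genes were, with a median of -0.27 against -0.03. In lymphocytes 2 of 11 were lower, where 6.22% of all genes were, with a median of -0.01 against -0.04. Within the libraries, 6 of the 11 were at least 1.5-fold higher in Vegfa macrophages than in the other macrophages and monocytes in each library, where 8.51% and 10.4% of all genes were.

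Genes that neutrophils use to grow and find their way formed another list, of 10. In Vegfa macrophages 2 of 7 with at least 20 UMIs were higher in the library labelled Irg1-/-, the formyl peptide receptors Fpr1 (1.69) and Fpr2 (0.73), and none was lower, where 5.96% of all genes were higher. The median was 0.30, against 0.0057 over all genes. In neutrophils 4 of 7 were higher and none lower, where 11.2% of all genes were higher, with a median of 0.66 against -0.14, and Csf3r, the receptor of the growth factor G-CSF, had 0.22 (-0.04 to 0.49). Csf3, its ligand, had 3 and 9 UMIs in Vegfa macrophages. In lymphocytes, the background group, 2 of 8 were higher and 1 lower, where 4.4% of all genes were higher, with a median of 0.22 against -0.04. The higher ones were again Fpr1 (1.14, from 1.41 and 3.15 CPM) and Fpr2 (0.72, from 6.14 and 10.1 CPM). In classical monocytes 1 of 7, Fpr1 (1.48), was higher and none lower, where 6.06% of all genes were higher, with a median of 0.02 against -0.03.

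Some genes of handling and of other cells also differed between the libraries in these groups, not always in the direction of the members. The 11 dissociation stress genes, such as Fos and Dusp1, summed to 12823 and 21298 CPM in neutrophils, 9131 and 10994 in Vegfa macrophages and 5684 and 8906 in classical monocytes, with none at 0. Their median log2 ratio was 0.62, 0.29 and 0.59. In lymphocytes they summed to 3620 and 4464 CPM, with a median of 0.30. The 6 melanocyte markers, led by Dct, summed to 188 and 61.1 CPM in Vegfa macrophages, 158 and 49.5 in classical monocytes, 211 and 35.9 in neutrophils and 168 and 40.3 in lymphocytes. They were lower in the library labelled Irg1-/- in each of these 4 groups, as Cxcl1 was in all of them but neutrophils, beside 59 and 8 melanocytes. The 7 neutrophil markers, led by Il1r2, summed to 144 and 185 CPM in Vegfa macrophages, with none at 0. Il1r2 itself had 72.5 and 68.8 CPM, while S100a9 had 5.71 and 28.9 and S100a8 9.83 and 25.6. Of the neutrophil markers with at least 20 UMIs 3 of 5 were higher there (median 0.71), 3 of 5 in classical monocytes (0.67) and 3 of 6, with 1 lower, in lymphocytes (0.72), where 5.96%, 6.06% and 4.4% of all genes were higher. The 6 stromal or endothelial markers, led by Kdr, summed to 41.4 and 55.0 CPM in Vegfa macrophages, with 1 at 0 in each library. Kdr had 32.7 and 31.8 CPM, while 3 of the 4 with at least 20 UMIs were higher (median 1.17), among them Col3a1 with 1.60 and 10.6 CPM. In classical monocytes 2 of 2 were higher (1.10), and in lymphocytes 2 of 4, with 1 lower (0.29). Their part in the chemokine ratios was not tested.

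The genes most alike to each member over 14 groups in both libraries (28 points, which share libraries and depth) are given as a description. For Cxcl1 it was Spp1 (Pearson r = 0.90), for Cxcl2 Tmem189 and Ier3 (both 0.95), for Cxcl3 Egln3 (0.94) and Il1a (0.89), for Cxcr2 S100a8 (0.96) and Il1f9 (0.96), for Ppbp Akr1b8 (0.83), and for Pf4 Stab1 and Igf1 (both 0.93). Egln3, S100a8, Stab1 and Igf1 are themselves markers of the gates. Among the members Cxcl2 and Cxcl3 had 0.79, Cxcl1 and Cxcl2 0.77, Ppbp and Pf4 0.63, and Cxcr2 and Pf4 -0.28.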

How the data were processed

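Single-cell UMI counts of 2 libraries were used. The deposited count of a gene in a cell is its number of UMIs, not normalized, which the authors obtained from reads with fastp, UMI-tools and STAR on the mouse genome of Ensembl release 100, before any filter on cells. Versions are not given in the sources used here.

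Cells with under 10% mitochondrial UMIs and more than 200 genes were kept, the limits that the methods name. Cells were gated on marker UMIs per 10000 UMIs, with at least 2 markers detected. Cuts were set after the scores had been seen, and the members and lists were chosen with earlier results of these data known. Cells that passed the cuts of 2 lineages were left out if the weaker score was not far below the stronger. Other such cells stayed in the group of the stronger score, and no doublet caller was run. UMIs were summed per group and library, and ratios used a pseudocount of 0.5 UMIs. Intervals are exact Poisson, Clopper-Pearson or binomial 95% intervals. The background was taken over genes that reached 20 UMIs in both libraries together, and 3 counts were taken as the floor of a count of 0. Named genes are the 6 members, the genes of the lists, and for each member the 5 genes of highest correlation of log2(CPM + 10) over groups. Patterns were described only for genes with at least 200 UMIs. Of the listed identifiers, 31184 were found in GENCODE mouse release 21.

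On simulated counts of Vegfa macrophages, 95% of 100 genes raised 2-fold and 93.8% of 96 lowered 2-fold passed 1.5-fold, as did 6.44% of 9785 unchanged genes. The counts were drawn with Poisson error from the summed UMIs of the group. They hold no spread between cells or pools, so these rates do not carry over to genes held by few cells. Tools were Python 3.11.15 with numpy 2.4.6, pandas 2.3.3, scipy 1.17.1, scikit-learn 1.9.0 and leidenalg 0.10.2, and edgeR 4.0.16 under R 4.3.3 for TMM factors.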

Additional observations from a re-analysis of the deposited data

Results flagged for a closer look

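Several members had log2 ratios (library labelled Irg1-/- over Irg1+/+) of opposite sign in different groups of cells, each beyond counting error with the gates as set. These differences between groups were not tested, since each genotype has 1 library.

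Cxcl1 was higher in neutrophils (0.53) and lower in classical monocytes (-1.54), interferon-activated monocytes (-1.17), Vegfa macrophages (-1.34), Ccl24 Mgl2 macrophages (-0.62), Mrc1 C1q macrophages (-0.82), cycling C1q macrophages (-1.86) and MHC class II C1q macrophages (-0.94). The neutrophil value was -0.018 with clusters in place of gates, and the Mrc1 C1q value 0.23 with stricter gates. Cxcl2 was higher in neutrophils (0.76), eosinophils (0.46) and nonclassical monocytes (1.02), and lower in classical monocytes (-0.80), interferon-activated monocytes (-0.77), Vegfa macrophages (-0.52), Ccl24 Mgl2 macrophages (-0.40), Mrc1 C1q macrophages (-0.39), cycling C1q macrophages (-0.64) and MHC class II C1q macrophages (-0.50). With stricter gates the Mrc1 C1q value was 0.038. The neutrophil value was smaller with clusters in place of gates. In nonclassical monocytes of the library labelled Irg1-/- 2 cells held most of the Cxcl2 UMIs. Ppbp was higher in Ccl24 Mgl2 macrophages (1.43) and lower in Vegfa macrophages (-0.56). The Vegfa value was 0.0098 without the richest cell of each library and 0.18 as a mean over cells, and 2 cells held 24 of the 40 UMIs of the Ccl24 Mgl2 macrophages labelled Irg1-/-. Pf4 was higher in Ccl24 Mgl2 macrophages (0.63) and in Mrc1 C1q macrophages (0.13), and lower in interferon-activated monocytes (-0.68) and cycling C1q macrophages (-0.30).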

How the results depend on the processing

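Of 108 library ratios recomputed for the 11 main ratios, 98 kept their sign and 88 stayed within the counting interval of the first value. For the 6 ratios of Vegfa macrophages over the other macrophages and monocytes (Cxcl1, Cxcl2 and Cxcl3 in each library), all 24 kept their sign and 14 stayed within it. With stricter gates the library ratio was -1.19 for Cxcl1 and -0.45 for Cxcl2 in Vegfa macrophages, 0.13 for Cxcl3 in neutrophils, -0.71 for Cxcl2 in classical monocytes, 0.48 for Pf4, 0.23 for Cxcl1 and 0.038 for Cxcl2 in Mrc1 C1q macrophages. With clusters in place of gates it was -0.99 for Cxcl1, -0.43 for Cxcl2 and -0.86 for Ppbp in Vegfa macrophages, and 0.32 for Cxcl2, -0.022 for Cxcr2 and -0.018 for Cxcl1 in neutrophils. Clusters were not used for classical monocytes, since the cluster of that name was led by Ace and Adgre4 and held Treml4 among its 10 leading genes, with Ace and Treml4 being markers of nonclassical monocytes, or for Mrc1 C1q macrophages, for which no cluster was named. As a mean of the cells' CPM, Ppbp had 0.18 and Pf4 0.087 in Vegfa macrophages, Cxcl2 0.60 and Cxcl3 -0.52 in neutrophils, and Pf4 0.26 in Mrc1 C1q macrophages. Without the richest cell of each library Ppbp had 0.0098 and Cxcl3 -1.26 in Vegfa macrophages, and without the 5% of cells with most UMIs Cxcl3 had -1.29. TMM scaling gave Cxcl2 0.92 in neutrophils, and with the possible doublets kept Cxcl2 had -0.66 in classical monocytes.

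Vegfa macrophages over the others had, for Cxcl1, 2.07 (clusters) and 1.68 (TMM) in the library labelled Irg1+/+, and 1.86 (stricter gates) and 2.39 (clusters) in that labelled Irg1-/-. For Cxcl2 the values were 1.53 and 1.198, and 1.34, 1.54 and 1.33 (TMM), and for Cxcl3 3.54 with stricter gates in the library labelled Irg1-/-. The cause was not tested for any of these. With all genes of at least 1 UMI, more genes were tested. In Vegfa macrophages 2961 were 1.5-fold lower and 2498 higher (687 and 596 with 20 UMIs). The counts were 3764 and 1888 in neutrophils, 2174 and 2671 in classical monocytes, and 3005 and 2348 in lymphocytes. In this order, the shares of the genes tested were 19.4% and 16.3%, 34.2% and 17.2%, 14.7% and 18.0%, and 17.3% and 13.5%. With 20 UMIs they were 6.87% and 5.96%, 22.3% and 11.2%, 6.17% and 6.06%, and 6.22% and 4.40%. Subtracting the lymphocyte level, leaving out cells rich in Ppbp and leaving out shared barcodes were chosen after seeing the data. No paired analysis was possible because each genotype has 1 library. Few UMIs limit the precision of the library ratios of Cxcr2 outside neutrophils and of Cxcl3 outside neutrophils and Vegfa macrophages. They do not limit the Cxcr2 level in Vegfa macrophages, which was bounded at 1.65 and 2.27 CPM. Single cells decide the Ppbp values, in Vegfa macrophages too.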
